A study of Homo sapiens with 12 samples.

Results

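The SR splicing factors and the heterogeneous nuclear ribonucleoproteins (hnRNPs) were followed through exposure of U937 cells to JS-K. The members were the genes whose symbol is SRSF followed by a number or starts with HNRNP, without pseudogenes and antisense transcripts. There were 29 such genes (10 SRSF and 19 HNRNP) among the 19775 genes that had a probe set listed with a single symbol. Each gene is represented by whichever of its probe sets was brightest on average over the 12 arrays.

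SR proteins carry RNA recognition motifs and a domain rich in arginine and serine. They bind exonic enhancers, help to recruit U1 and U2 snRNPs to splice sites and, for some members, serve as adaptors for mRNA export. The hnRNPs coat nascent transcripts, and many of them repress exons or splice sites that SR proteins favour, so that the balance between both families contributes to the choice of exons. Many genes of both families also make transcripts with retained introns or poison exons, through which their own proteins limit their expression.

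U937 is a human leukemia line of the myeloid lineage that resembles monocytes, and JS-K is a prodrug that releases nitric oxide. Cells of this single line were given DMSO vehicle or JS-K for 90 min, 4 h or 24 h, with 3 biological replicates in each of the 4 groups. The labels state neither the dose nor how long the vehicle group was kept, and no vehicle group was matched to each time, so JS-K exposure and time in culture cannot be told apart. The labels call the samples biological replicates but do not say that they came from separate cultures. The p-values measure only the spread among these samples, whose source is not stated. Of 11 myeloid markers measured, 8 had a mean log2 level of at least 4, while MPO, FCGR1A and CD14 lay under it. Of 9 markers of other cell types, COL1A1 and PECAM1 were above that level and 7 lay under it.

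Over the time course the SRSF and HNRNP genes shifted from a small early increase in a few members to a broad decrease at 24 h. A gene was called higher or lower where limma's moderated test over all genes gave an adjusted p under 0.05. At 90 min 6 members were higher than vehicle and 0 were lower, at 4 h 4 were higher and 9 lower, and at 24 h 1 was higher and 21 were lower. Of genes with a mean level of at least 4, 8.05%, 14.7% and 25.9% were higher at these times and 10.5%, 32.4% and 37.1% lower. The 3 comparisons share the same vehicle arrays. By limma's F test across the 4 groups, 7 SRSF and 16 HNRNP genes differed in some group, beside 38.1% of all genes. A mean level under 4 was found in 51.7% of all genes and in 2 members, so this share is not a like comparison. The median log2 difference of the 29 genes was 0.08 at 90 min, -0.08 at 4 h and -0.47 at 24 h, beside 0.01, 0.06 and 0.06 over all genes and -0.03, -0.14 and -0.09 over the 9551 genes with a mean level of at least 4. In RNA from whole cultures, fewer cells of a kind and less RNA per cell cannot be told apart.

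**Figure D1:**
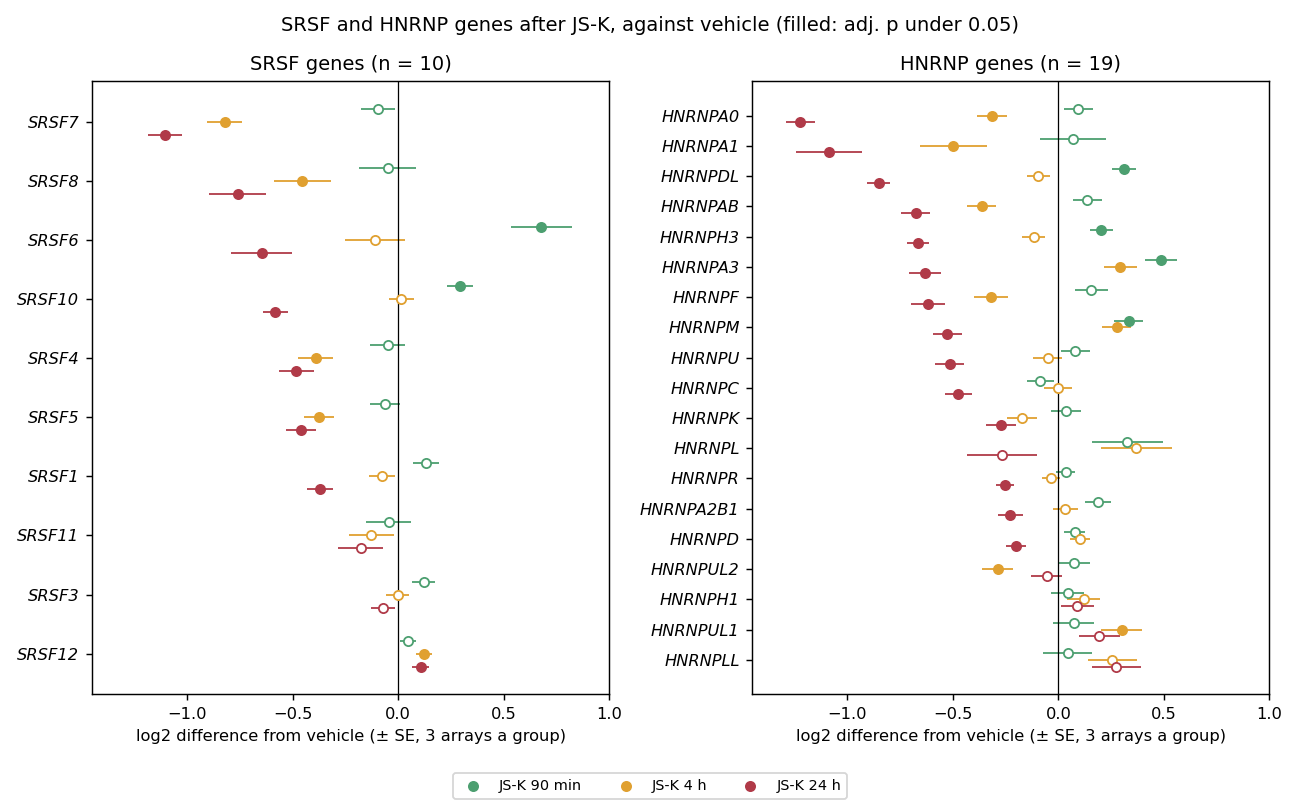
Log2 difference from vehicle (x axis, ± SE of the fit, 3 arrays a group) for each SRSF gene (left) and HNRNP gene (right) at 90 min, 4 h and 24 h of JS-K. Filled points have an adjusted p under 0.05, and the 24 h points reach -1.22 for HNRNPA0 and -1.10 for SRSF7 while those of SRSF3 and HNRNPH1 stay near 0.

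At 90 min the members that rose were SRSF6, SRSF10, HNRNPA3, HNRNPM, HNRNPDL and HNRNPH3. SRSF6, an SR protein that binds exonic enhancers, rose most, 1.60-fold, and the HNRNP genes rose 1.15 to 1.40-fold. The 2 of 10 SRSF genes and 4 of 19 HNRNP genes called higher stand beside 4.03% of all genes called higher and 8.05% of those with a mean of at least 4. No member was called lower, against 5.62% and 10.5% of genes. The groups did not overlap for 14 of 29 members and for 26.9% of all genes. Of the 9551 genes with a mean of at least 4 they did not overlap for 4492, a share close to that of the members.

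The log2 level of SRSF6 was 10.17, 10.73 and 10.22 on the vehicle arrays, 11.16, 11.04 and 10.95 at 90 min, 10.43, 10.04 and 10.33 at 4 h and 9.90, 9.65 and 9.63 at 24 h. All 90 min arrays were above all vehicle arrays, although the vehicle arrays were spread, with replicate 2 apart from the others. The difference was 0.68 ± 0.14 (adjusted p = 0.00994) at 90 min. HNRNPA3, a relative of HNRNPA1 with a role in mRNA transport, read 12.51, 12.50 and 12.41 on the vehicle arrays, 12.91, 12.98 and 12.99 at 90 min, 12.56, 12.91 and 12.83 at 4 h and 11.83, 11.90 and 11.80 at 24 h. It was higher at both early times, by 0.49 ± 0.08 (adjusted p = 0.00159) and 0.29 ± 0.08 (adjusted p = 0.0158), with no overlap with vehicle. Its call at 4 h ended without vehicle replicate 3 (0.26, adjusted p = 0.0672).

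HNRNPM, a splicing regulator that binds GU-rich RNA, had levels of 12.53, 12.29 and 12.45 on the vehicle arrays, 12.68, 12.82 and 12.78 at 90 min, 12.67, 12.64 and 12.79 at 4 h and 11.84, 11.89 and 11.97 at 24 h. The 90 min and 4 h arrays were all above vehicle, by 0.33 ± 0.07 and 0.28 ± 0.07. For SRSF10, which represses splicing in its dephosphorylated form, the levels were 10.99, 11.08 and 11.05 on the vehicle arrays, 11.26, 11.37 and 11.36 at 90 min, 11.12, 11.07 and 10.98 at 4 h and 10.40, 10.55 and 10.42 at 24 h. Only the 90 min arrays lay above vehicle, and the difference was 0.29 ± 0.06 (adjusted p = 0.00899).

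HNRNPDL, the hnRNP D-like protein, measured 12.38, 12.40 and 12.44 on the vehicle arrays, 12.79, 12.68 and 12.69 at 90 min, 12.39, 12.27 and 12.28 at 4 h and 11.64, 11.56 and 11.48 at 24 h. Its 90 min arrays were above vehicle and its 4 h arrays overlapped vehicle. HNRNPH3, a member of the F/H group that binds runs of G, stood at 10.98, 10.91 and 10.99 on the vehicle arrays, 11.09, 11.20 and 11.21 at 90 min, 10.80, 10.87 and 10.86 at 4 h and 10.27, 10.32 and 10.30 at 24 h. Its rise at 90 min was the smallest, 0.20 ± 0.05 (adjusted p = 0.0295), and the call ended in 5 of 6 fits that left out an array (0.18 to 0.22, adjusted p 0.0645 to 0.123): all but the fit without JS-K 90 min replicate 1.

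The early calls were sensitive to how a rise was defined. None of the 6 passed limma's test against a fold of 1.2, and when all probe sets of a gene were averaged, HNRNPA3 alone of the 6 remained called. That average includes low-signal probe sets, such as the other one of SRSF6, with a mean of 2.45. With only probe sets of a mean of at least 4 averaged, of which SRSF6 has 1, SRSF6 and HNRNPA3 remained called. A second probe set with a mean of at least 4 was called higher for 2 of the 5 genes that had one.

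**Figure D2:**
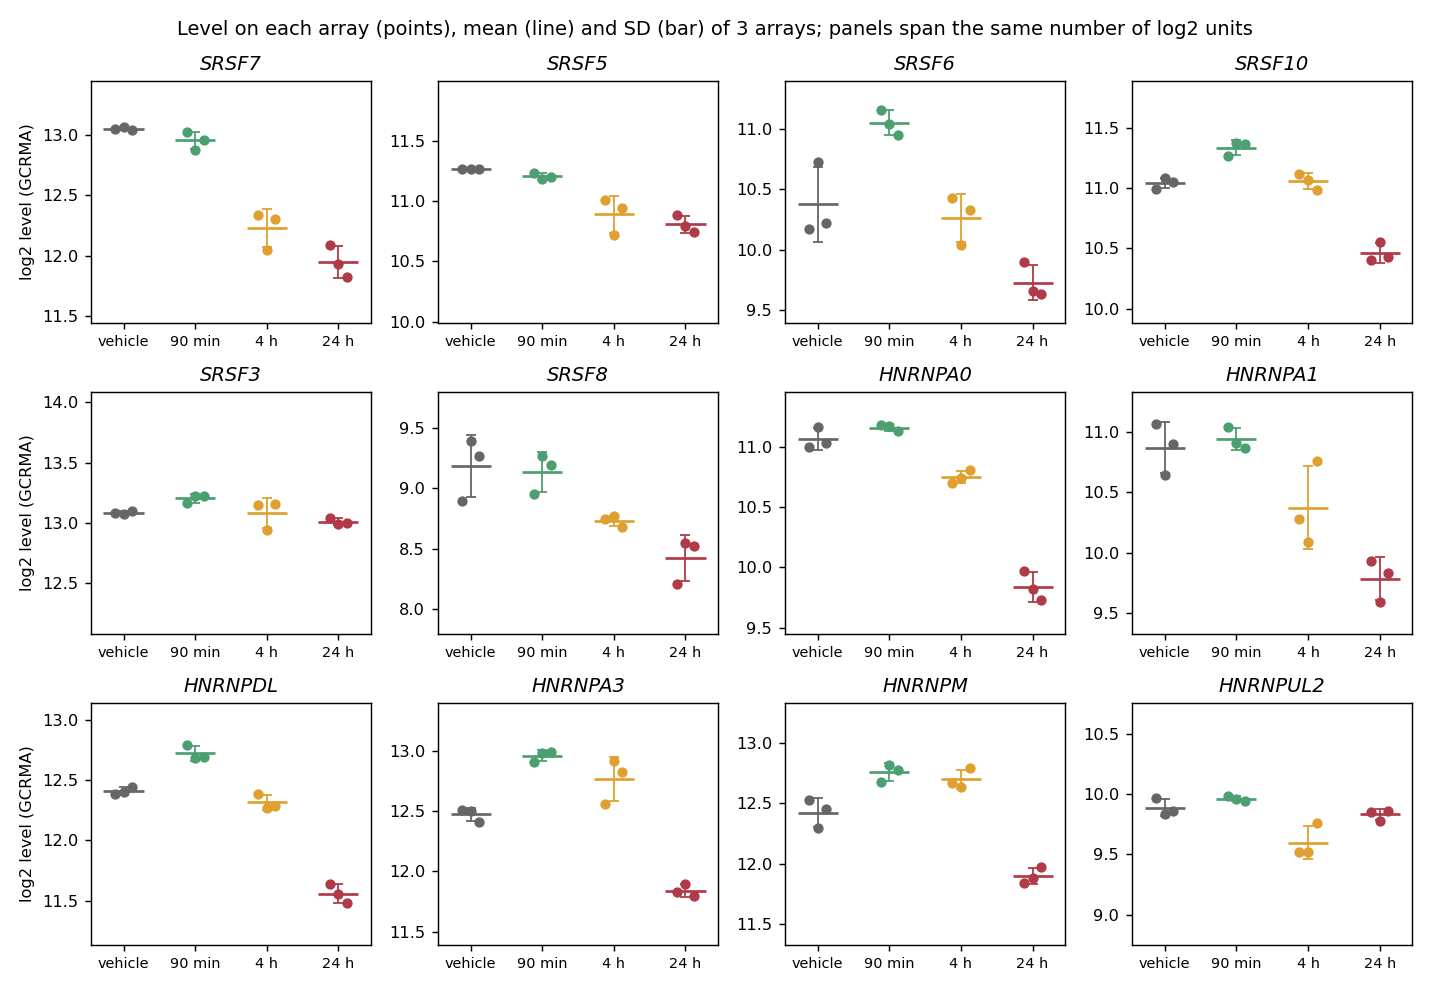
Log2 level on each array (y axis, GCRMA) for 12 members in the vehicle, 90 min, 4 h and 24 h groups. Points are arrays, lines are means and bars are the SD of 3 arrays, and every panel spans the same number of log2 units. SRSF6, SRSF10, HNRNPDL, HNRNPA3 and HNRNPM peak at 90 min, and SRSF7 and SRSF5 are low from 4 h. By the probe set that represents it, SRSF3 stays level.

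The promoters of the 6 genes called higher at 90 min are printed because these members rose together, as the 250 bases before the RefSeq start in GRCh38.p14. The table of promoters held 28 of the 29 members, and a gene with several starts was read at the most upstream one. Capitals mark the E-box CACGTG, a palindrome read on both strands, and the sequences are in the direction of transcription.
SRSF6 (chr20:43457646-43457895, plus strand): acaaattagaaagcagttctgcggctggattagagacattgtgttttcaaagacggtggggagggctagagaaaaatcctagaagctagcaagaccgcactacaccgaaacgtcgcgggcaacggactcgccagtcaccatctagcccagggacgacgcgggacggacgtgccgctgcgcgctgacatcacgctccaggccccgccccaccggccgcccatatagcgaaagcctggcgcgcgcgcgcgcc
SRSF10 (chr1:23980328-23980577, minus strand): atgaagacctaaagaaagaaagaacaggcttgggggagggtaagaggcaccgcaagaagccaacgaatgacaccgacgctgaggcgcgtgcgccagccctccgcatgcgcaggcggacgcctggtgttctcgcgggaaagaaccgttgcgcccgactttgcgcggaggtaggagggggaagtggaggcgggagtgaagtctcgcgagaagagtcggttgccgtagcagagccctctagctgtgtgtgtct
HNRNPA3 (chr2:177212544-177212793, plus strand): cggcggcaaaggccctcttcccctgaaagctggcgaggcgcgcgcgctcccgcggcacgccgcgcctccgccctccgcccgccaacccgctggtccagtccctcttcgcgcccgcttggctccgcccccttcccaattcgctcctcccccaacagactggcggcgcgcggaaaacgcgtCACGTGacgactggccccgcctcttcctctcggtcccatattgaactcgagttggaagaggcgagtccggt
HNRNPDL (chr4:82430463-82430712, minus strand): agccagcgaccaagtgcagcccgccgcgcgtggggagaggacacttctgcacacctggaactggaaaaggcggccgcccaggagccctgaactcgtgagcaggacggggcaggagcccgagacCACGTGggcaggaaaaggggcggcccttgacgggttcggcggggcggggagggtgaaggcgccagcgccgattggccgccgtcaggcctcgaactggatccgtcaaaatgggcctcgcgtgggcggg
HNRNPH3 (chr10:68331443-68331692, plus strand): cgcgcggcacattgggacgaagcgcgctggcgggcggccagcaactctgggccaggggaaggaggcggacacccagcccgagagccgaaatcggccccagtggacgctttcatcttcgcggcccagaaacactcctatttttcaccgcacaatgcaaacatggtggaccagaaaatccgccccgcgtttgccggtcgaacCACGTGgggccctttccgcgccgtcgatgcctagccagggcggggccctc
HNRNPM (chr19:8444725-8444974, plus strand): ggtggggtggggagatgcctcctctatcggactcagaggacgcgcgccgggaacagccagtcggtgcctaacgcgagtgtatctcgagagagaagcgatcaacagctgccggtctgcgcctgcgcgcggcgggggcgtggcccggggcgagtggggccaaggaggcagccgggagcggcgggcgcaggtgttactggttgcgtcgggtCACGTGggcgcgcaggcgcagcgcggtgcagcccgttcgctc

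The E-box was present in 4 of these 6 windows, 71 bases before the start in HNRNPA3, 127 in HNRNPDL, 50 in HNRNPH3 and 42 in HNRNPM. Over the families it was found in 5 of 28 windows (17.9%), the other being HNRNPD at 27 bases, beside 6.46% of 27305 promoters. The CCAAT box (CCAAT or its complement ATTGG) was in 15 members (53.6%) and in 33.0% of promoters. GGGGCGGGG, a GC box read on both strands, was in 9 members (32.1%) and 15.3% of promoters, and TATAAA was in 4 members (14.3%) and 11.2%. The palindrome TGACGTCA, a cAMP response element, was in 0 of 28 windows and in 1.75% of promoters. The median GC content was 65.8% in the members and 57.6% over all windows. The promoters set beside the members were not limited by kind of gene or by level, so their shares are not a like comparison. These matches describe letters in a window, and binding was not measured.

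At 4 h members were called in both directions. Over both families together the shares were close to those of genes at or above level 4. SRSF7, SRSF8, SRSF4 and SRSF5 were lower than vehicle, as were HNRNPA1, HNRNPAB, HNRNPF, HNRNPA0 and HNRNPUL2, by 1.22 to 1.77-fold. HNRNPA3, HNRNPM and HNRNPUL1 were higher, by 1.21 to 1.23-fold. The 4 of 10 SRSF and 5 of 19 HNRNP genes called lower compare with 16.6% of all genes and 32.4% of genes at or above level 4, and the 1 SRSF and 3 HNRNP genes called higher with 23.9% and 14.7%. The SRSF gene called higher was SRSF12, which had a mean log2 level under 4 in every group, so no fold is given. Its call ended without vehicle replicate 1, 2 or 3 or JS-K 4 h replicate 2 (adjusted p 0.0542 to 0.117). The members called higher numbered 2 without vehicle replicate 1 or 2 and 1 without vehicle replicate 3. The groups did not overlap for 18 of 29 members, for 70.2% of all genes and for 5393 of the 9551 genes with a mean of at least 4.

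Subtracting array medians gave 2 members higher and 9 lower at 4 h, and quantile normalization gave 3 higher and 6 lower, with the calls of HNRNPA1, HNRNPUL2, SRSF8 and SRSF12 ended. With all probe sets of a gene averaged, HNRNPA3 and HNRNPM were no longer called at 4 h (0.03 and 0.08, adjusted p = 0.781 and 0.235). Quantile normalization of the deposited values moved the median of genes at or above a level of 4 from -0.14 to -0.01 in this comparison, and that of the 29 members from -0.08 to -0.01.

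At 24 h the decrease reached both families. Of 10 SRSF genes 7 were lower, by 1.29 to 2.15-fold, and of 19 HNRNP genes 14 were lower, by 1.15 to 2.33-fold. These shares stand beside 18.9% of all genes and 37.1% of those at or above level 4. HNRNPA0, SRSF7 and HNRNPA1 fell at least 2-fold by the probe sets that represent them, while brighter probe sets that list HNRNPA1 beside its pseudogenes, described with that gene, differed by less and entered no fit. The member called higher was again SRSF12, against 17.8% of all genes and 25.9% of those with a mean of at least 4, and that call ended in each of the 6 fits that left out an array (adjusted p 0.0605 to 0.140). The groups did not overlap for 24 of 29 members, for 82.3% of all genes and for 7242 of the 9551 genes with a mean of at least 4. The same 21 members were called lower in each of these 6 fits. Against a fold of 1.2 the calls of HNRNPA2B1, HNRNPD, HNRNPK, HNRNPR and SRSF1 ended.

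**Figure D3:**
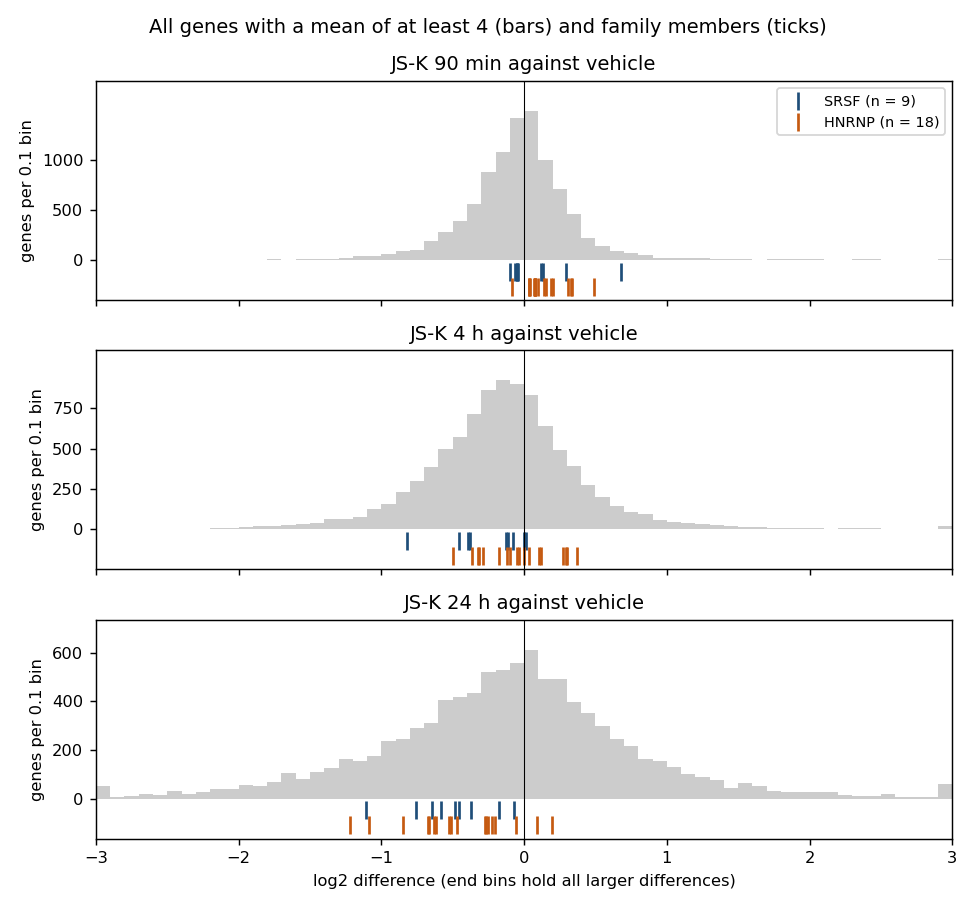
Distribution of log2 differences from vehicle (x axis) over the 9551 genes with a mean log2 level of at least 4 (grey bars, genes per bin, y axis) at each time, with ticks for the 9 SRSF and 18 HNRNP genes above that level. The ticks lie mostly right of 0 at 90 min and left of 0 at 24 h, within the range of the grey bars.

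Between successive times, 6 SRSF and 7 HNRNP genes were lower at 4 h than at 90 min and 0 members were higher, beside 7.25% of all genes lower and 3.33% higher (14.7% and 6.42% of those with a mean of at least 4). This comparison and the next share the 4 h arrays. From 4 h to 24 h, 4 SRSF and 14 HNRNP genes were lower and HNRNPUL2 was higher, beside 10.7% and 12.8% of all genes (21.8% and 24.7% of those with a mean of at least 4). The call of HNRNPUL2 ended in 5 of 6 fits that left out an array, all but the fit without JS-K 4 h replicate 3 (0.19 to 0.26, adjusted p 0.0547 to 0.118). The largest fall between 90 min and 4 h was in SRSF6, -0.79 ± 0.14 (adjusted p = 0.00371), followed by SRSF7, -0.72 ± 0.08. Between 4 h and 24 h the largest were HNRNPA3, -0.93 ± 0.08 (adjusted p = 2.24e-06), and HNRNPA0, -0.91 ± 0.07. The calls of SRSF1 and HNRNPA1 between 90 min and 4 h ended in 5 of 6 fits that left out an array each (SRSF1 adjusted p 0.0910 to 0.150, HNRNPA1 0.0815 to 0.153).

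Among all SRSF genes SRSF7, an adaptor for mRNA export as well as a splicing factor, fell most. Its log2 level was 13.05, 13.07 and 13.04 on the vehicle arrays, 13.02, 12.88 and 12.96 at 90 min, 12.33, 12.05 and 12.30 at 4 h and 12.09, 11.93 and 11.82 at 24 h. Every 4 h and 24 h array lay below every vehicle array, with differences of -0.82 ± 0.08 (adjusted p = 1.63e-05) and -1.10 ± 0.08 (adjusted p = 2.93e-07), while the 90 min difference was -0.10 ± 0.08 (adjusted p = 0.74). SRSF8, a close relative of SRSF2, had levels of 8.90, 9.39 and 9.27 on the vehicle arrays, 8.95, 9.27 and 9.19 at 90 min, 8.74, 8.77 and 8.68 at 4 h and 8.20, 8.55 and 8.52 at 24 h. Its 4 h and 24 h arrays were below vehicle, by -0.45 ± 0.13 and -0.76 ± 0.13. The 4 h call of SRSF8 ended without vehicle replicate 2 (-0.35, adjusted p = 0.0752) and without vehicle replicate 3 (-0.41, adjusted p = 0.0926), under quantile normalization (-0.31, adjusted p = 0.158) and with the 6 arrays alone (adjusted p = 0.0545). The probe sets used for SRSF7, SRSF8, HNRNPA1 and HNRNPU are of a class marked by the array maker as able to bind transcripts of other genes.

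SRSF4 and SRSF5, which with SRSF6 form a group of closely related SR proteins, were lower at 4 h and 24 h. SRSF4 read 10.89, 10.97 and 10.96 on the vehicle arrays, 11.03, 10.82 and 10.82 at 90 min, 10.69, 10.40 and 10.56 at 4 h and 10.52, 10.48 and 10.37 at 24 h. For SRSF5 the arrays gave 11.27, 11.26 and 11.26 on the vehicle arrays, 11.23, 11.18 and 11.20 at 90 min, 11.01, 10.72 and 10.94 at 4 h and 10.88, 10.79 and 10.74 at 24 h. In both genes the vehicle and 90 min arrays were close together and the 4 h and 24 h arrays lay below vehicle. The differences were -0.39 ± 0.08 and -0.48 ± 0.08 in SRSF4 and -0.38 ± 0.07 and -0.46 ± 0.07 in SRSF5, and neither gene was called between 4 h and 24 h (adjusted p = 0.65 and 0.616). For SRSF4 the 4 h call ended when probe sets were averaged, at -0.12 (adjusted p = 0.119) over all of them and -0.20 (adjusted p = 0.0778) over those with a mean of at least 4. The difference in SRSF6 was -0.11 ± 0.14 at 4 h and -0.65 ± 0.14 (adjusted p = 0.00321) at 24 h.

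SRSF1, the SR protein best known for exon definition and as a driver of transformation, fell at 24 h. Its levels were 13.18, 13.12 and 13.21 on the vehicle arrays, 13.33, 13.27 and 13.30 at 90 min, 13.07, 13.01 and 13.19 at 4 h and 12.92, 12.73 and 12.74 at 24 h. The 24 h arrays were below vehicle, by -0.37 ± 0.06 (adjusted p = 0.000323). SRSF10 fell by 0.58 ± 0.06 at 24 h, with every array below vehicle. SRSF3, another export adaptor, and SRSF11 were not called at any time by the probe sets that represent them. Their 24 h differences were -0.07 ± 0.06 and -0.18 ± 0.11 (adjusted p = 0.268 and 0.172). With all probe sets of a gene averaged, both were called lower at 24 h. Of the 6 SRSF3 probe sets, fitted each on its own, 1 was higher at 90 min and 1 at 4 h, and 3 were lower at 24 h. Of the 4 SRSF11 probe sets, fitted each on its own, 1 was lower at 90 min, 1 at 4 h and 2 at 24 h, and 0 were higher. An SRSF11 probe set with a mean level of 8.81 had means of 9.51 on vehicle arrays and 8.68, 8.52 and 8.53 at the 3 times.

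In the A/B group, which includes the classical exon repressors, HNRNPA0 and HNRNPA1 fell most. HNRNPA0, which binds AU-rich elements, had levels of 10.99, 11.16 and 11.03 on the vehicle arrays, 11.18, 11.17 and 11.13 at 90 min, 10.70, 10.74 and 10.80 at 4 h and 9.97, 9.82 and 9.73 at 24 h. Its 4 h arrays lay below vehicle and its 24 h arrays lay lower still, with differences of -0.31 ± 0.07 (adjusted p = 0.00572) and -1.22 ± 0.07 (adjusted p = 3.28e-08), the last a 2.33-fold decrease. HNRNPA1, which silences exons and shuttles with mRNA, read 11.07, 10.64 and 10.90 on the vehicle arrays, 11.04, 10.91 and 10.87 at 90 min, 10.27, 10.09 and 10.75 at 4 h and 9.93, 9.59 and 9.83 at 24 h. The 24 h arrays were all below vehicle, by -1.08 ± 0.16 (adjusted p = 0.000112), whereas JS-K 4 h replicate 3 overlapped vehicle.

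The 4 h call of HNRNPA1, -0.50 ± 0.16 (adjusted p = 0.0365), ended without vehicle replicate 1, vehicle replicate 3, JS-K 4 h replicate 1 or JS-K 4 h replicate 2 (-0.48 to -0.36, adjusted p 0.0531 to 0.125). It also ended under quantile normalization (-0.42, adjusted p = 0.0756), with a constant prior spread (adjusted p = 0.0642) and with the 6 arrays alone (adjusted p = 0.102). HNRNPA1 and HNRNPA3 have near-identical pseudogenes, so the source of their signal is uncertain. The brightest probe set that lists HNRNPA1 beside a pseudogene, left out of the fit, read 13.89, 13.80 and 13.79 on the vehicle arrays, 13.87, 13.90 and 13.90 at 4 h and 13.47, 13.49 and 13.42 at 24 h. Its 4 h arrays overlapped vehicle, and its 24 h arrays lay below vehicle, from a mean of 13.83 to 13.46. Another such probe set had means of 13.69 on the vehicle arrays, 13.74 at 4 h and 13.30 at 24 h. For HNRNPA3 the brightest of 3 such probe sets had means of 12.73 on the vehicle arrays, 13.04 at 90 min, 12.63 at 4 h and 12.01 at 24 h. HNRNPAB, an RNA-binding protein related to hnRNP A and B, was at 11.78, 11.74 and 11.77 on the vehicle arrays, 11.93, 11.90 and 11.87 at 90 min, 11.49, 11.21 and 11.50 at 4 h and 11.12, 11.07 and 11.07 at 24 h. It was below vehicle on all 4 h and 24 h arrays, by -0.36 ± 0.07 and -0.68 ± 0.07. HNRNPA3 ended at -0.63 ± 0.08 (adjusted p = 2.7e-05) at 24 h, and HNRNPA2B1, a reader of RNA elements in splicing and transport, fell by 0.23 ± 0.06. An HNRNPA2B1 probe set with a mean level of 8.96 was lower at 90 min, 4 h and 24 h (-0.52, -0.93 and -1.37, adjusted p = 0.00611, 4.37e-05 and 4.33e-07). Another, with a mean level of 11.20, was lower at 4 h (-0.39, adjusted p = 0.000721) and 24 h (-0.28, adjusted p = 0.00257), and the dimmest was not called.

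The members of the C and D groups were called lower at 24 h. HNRNPC, which binds uridine tracts of nascent transcripts, read 13.09, 13.11 and 13.21 on the vehicle arrays, 12.92, 13.13 and 13.10 at 90 min, 13.04, 13.23 and 13.13 at 4 h and 12.66, 12.64 and 12.69 at 24 h. Only the 24 h arrays stood below vehicle, by -0.47 ± 0.06 (adjusted p = 7.02e-05). HNRNPD, also called AUF1, a regulator of the decay of AU-rich mRNAs, read 12.90, 12.85 and 12.93 on the vehicle arrays, 13.01, 12.97 and 12.92 at 90 min, 12.94, 13.05 and 12.99 at 4 h and 12.66, 12.75 and 12.65 at 24 h. The fall at 24 h was small, -0.20 ± 0.05 (adjusted p = 0.00499), with no overlap, and its call ended under quantile normalization (-0.13). HNRNPDL fell by 0.85 ± 0.05 (adjusted p = 9.53e-08), with all 24 h arrays below vehicle.

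In the F/H group, which binds runs of G, HNRNPF and HNRNPH3 fell and HNRNPH1 was not called. HNRNPF levels were 10.47, 10.52 and 10.55 on the vehicle arrays, 10.80, 10.58 and 10.63 at 90 min, 10.29, 10.04 and 10.25 at 4 h and 9.85, 9.87 and 9.98 at 24 h. Every 4 h and 24 h array was below vehicle, by -0.32 ± 0.08 and -0.62 ± 0.08. HNRNPH3 fell by 0.67 ± 0.05 at 24 h. HNRNPH1 differed from vehicle by 0.04, 0.12 and 0.09 at the 3 times, each with an SE of 0.08.

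HNRNPU, a nuclear scaffold protein that binds chromatin and RNA, and its relatives did not move together. HNRNPU read 12.65, 12.54 and 12.55 on the vehicle arrays, 12.80, 12.61 and 12.56 at 90 min, 12.62, 12.44 and 12.52 at 4 h and 12.05, 12.12 and 12.02 at 24 h. Its 24 h arrays were below vehicle, by -0.51 ± 0.07 (adjusted p = 5.56e-05). HNRNPUL2 was lower at 4 h, -0.29 ± 0.07 (adjusted p = 0.0131), and not called at 24 h, -0.06 ± 0.07 (adjusted p = 0.516). Its call at 4 h ended without vehicle replicate 1 (-0.25, adjusted p = 0.0574). HNRNPUL1 was higher at 4 h, 0.30 ± 0.10 (adjusted p = 0.0394), a call that ended in 4 of 6 fits that left out an array (0.20 to 0.33, adjusted p 0.0576 to 0.117).

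Of the remaining HNRNP genes, HNRNPM changed from its early rise to -0.53 ± 0.07 (adjusted p = 4.3e-05) at 24 h, a call that ended with all probe sets averaged (-0.15, adjusted p = 0.0689). That average includes HNRNPM probe sets with a mean level under 4. HNRNPK, which binds C-rich RNA and DNA, fell by 0.27 ± 0.07 (adjusted p = 0.01), and HNRNPR, a relative of SYNCRIP, fell by 0.25 ± 0.04 (adjusted p = 0.00047). The other HNRNPK probe set, with a mean level of 12.06, was higher at 90 min (0.32 ± 0.05, adjusted p = 0.00136) and 4 h (0.26 ± 0.05, adjusted p = 0.00201). At 24 h it was lower, by -0.25 ± 0.05 (adjusted p = 0.0014). HNRNPL, which binds CA repeats, was not called against vehicle, with -0.27 ± 0.17 at 24 h, but was lower at 24 h than at 4 h, -0.64 ± 0.17 (adjusted p = 0.0133). That call ended without JS-K 4 h replicate 3 or JS-K 24 h replicate 2 (-0.60 and -0.55, adjusted p 0.0517 to 0.0607). HNRNPLL, a regulator of CD45 splicing, had low signal and was not called.

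The 29 genes had 115 probe sets, of which 94 had a mean of at least 4. In a fit of every probe set, 13 of these 94 were higher and 6 lower than vehicle at 90 min, beside 6.36% and 7.61% of all probe sets at or above level 4. At 4 h 9 were higher and 33 lower, beside 13.3% and 27.1%. At 24 h 2 were higher and 73 lower, beside 23.3% and 34.5%. All 18 genes called lower at 24 h that had a second probe set of at least 4 had a second one called lower. At 4 h this held for 4 of 7 genes, the others being HNRNPA0, HNRNPUL2 and SRSF4. Probe sets of a gene were called in opposite directions for HNRNPDL at 90 min, for HNRNPC, HNRNPD and HNRNPDL at 4 h and for HNRNPM at 24 h.

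**Figure D4:**
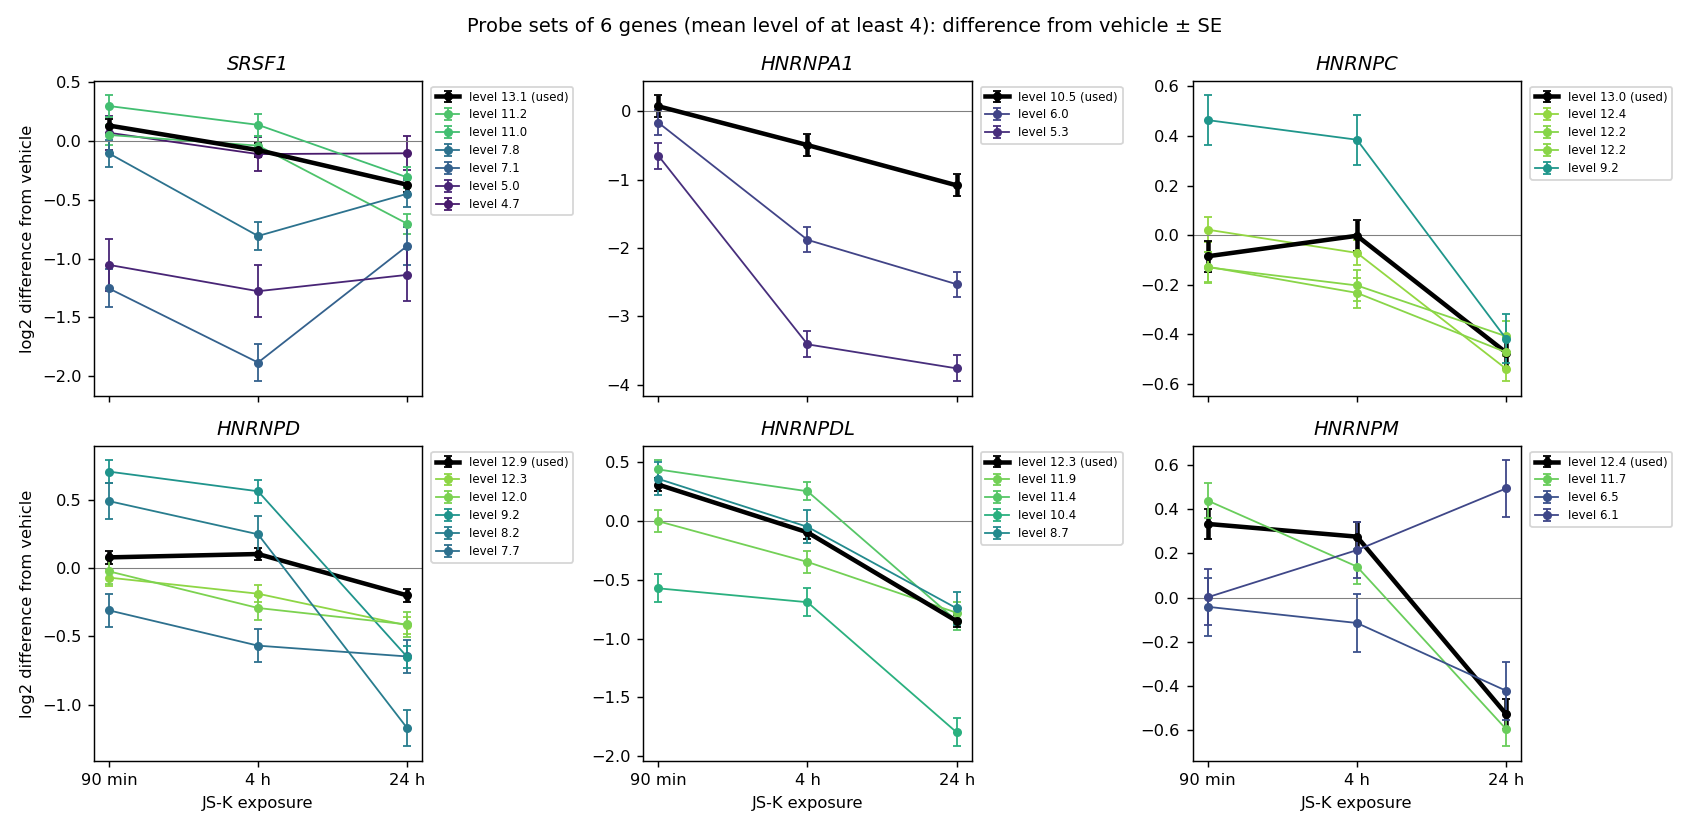
Log2 difference from vehicle (y axis, ± SE) at each JS-K exposure (x axis) for the probe sets of 6 genes with a mean log2 level of at least 4. The black line is the probe set that represents the gene, and colours run with the mean level given in the legends. Most lines end below 0 at 24 h, with 1 HNRNPM probe set above it, while lines of SRSF1, HNRNPA1, HNRNPC, HNRNPD and HNRNPDL lie apart at 90 min or 4 h.

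Probe sets of SRSF1 and HNRNPA1 lay apart from those that represent the genes. For SRSF1, a probe set with a mean level of 7.06 read 8.06, 8.08 and 8.04 on the vehicle arrays, 6.89, 6.76 and 6.79 at 90 min, 6.23, 5.78 and 6.53 at 4 h and 7.34, 7.07 and 7.11 at 24 h. It was lower than vehicle at every time, by -1.25 ± 0.16 (adjusted p = 0.000619), -1.88 ± 0.16 and -0.89 ± 0.16, and rose from 4 h to 24 h by 0.99 ± 0.16 (adjusted p = 0.000794), where the probe set that represents SRSF1 fell by 0.29. At 90 min the mean over all SRSF1 probe sets was lower than vehicle (-0.37, adjusted p = 0.0108), opposite to the estimate of the representing probe set, 0.13 ± 0.06.

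An HNRNPA1 probe set with a mean level of 5.33 gave 7.65, 6.89 and 7.31 on the vehicle arrays, 4.04, 3.57 and 4.01 at 4 h and 3.49, 3.55 and 3.53 at 24 h. It was called lower at both times (adjusted p = 4.66e-07 and 3.52e-08), and no size is given, since its means of 3.87 at 4 h and 3.52 at 24 h were under the low-signal level of 4. The HNRNPA1 probe set with a mean level of 6.01 fell by 1.88 ± 0.18 and 2.53 ± 0.18 at the same times.

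An HNRNPD probe set with a mean level of 9.20 was higher at 90 min and 4 h, 0.70 ± 0.08 (adjusted p = 0.000325) and 0.56 ± 0.08 (adjusted p = 0.000579), and lower at 24 h, -0.65 ± 0.08. Likewise an HNRNPC probe set with a mean level of 9.25 was higher at 90 min and 4 h, by 0.46 ± 0.10 (adjusted p = 0.0156) and 0.38 ± 0.10 (adjusted p = 0.0197). For HNRNPDL, the probe set with a mean level of 10.4 was lower at 90 min, -0.57 ± 0.12 (adjusted p = 0.0137), and the probe set with a mean level of 11.4 higher, 0.44 ± 0.08 (adjusted p = 0.00492). SRSF3, not called by its representing probe set, had a probe set with a mean level of 11.2 higher at 90 min, 0.73 ± 0.08 (adjusted p = 0.000274), and a probe set with a mean level of 7.78 lower at 24 h, -2.03 ± 0.23 (adjusted p = 2.5e-05). An HNRNPM probe set with a mean level of 6.13 was higher at 24 h, 0.49 ± 0.13 (adjusted p = 0.0106). SRSF3 here, and the further probe sets of HNRNPK, HNRNPA2B1 and SRSF11 given above, were picked out after their values were seen. Where each probe set lies in its transcripts is not given in the sources used here.

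Of 38 protein-coding genes of both families in RefSeq, 9 had no probe set with a single symbol, among them SRSF2, SRSF9 and HNRNPH2, and 13 probe sets list a member beside another symbol. The brightest probe set of SRSF2 and MIR636 over the 12 arrays read 12.23, 12.39 and 12.27 on the vehicle arrays, 12.23, 12.09 and 12.14 at 4 h and 11.80, 11.94 and 11.85 at 24 h, with the 4 h arrays overlapping vehicle. Another, nearly as bright, read 12.33, 12.33 and 12.37 on the vehicle arrays, 12.14, 11.84 and 12.02 at 4 h and 11.84, 11.91 and 11.92 at 24 h, with no overlap. The brightest probe set of SRSF9 and GATC read 11.72, 11.68 and 11.70 on the vehicle arrays and 11.32, 11.25 and 11.26 at 24 h. The 24 h arrays of these probe sets of SRSF2 and SRSF9 were all below vehicle. The probe set shared by HNRNPH2 and a readthrough transcript read 10.65, 10.79 and 10.93 on the vehicle arrays and 10.83, 10.93 and 10.96 at 24 h, which overlapped. These probe sets entered no fit.

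Other splicing genes, in lists chosen with earlier results of these data known, are given for 24 h. At that time 37.1% of genes at or above level 4 were called lower and 25.9% higher. Of 7 SR kinases, which phosphorylate the SR domain, 2 were higher and 2 lower, near these shares. CLK1 (0.75 ± 0.08) and CLK4 (0.39 ± 0.11) rose, and CLK2 (-0.83 ± 0.17) and SRPK1 (-0.32 ± 0.06) fell. CLK1 was also the single kinase called at 90 min, 0.60 ± 0.08. Of 16 SR-related and exon junction proteins 10 were lower and 2 higher (median -0.34), with TRA2A at -1.02 ± 0.15, SRRM1 at -0.84 ± 0.09 and SREK1 at -0.74 ± 0.08 against SRRM2, a scaffold of nuclear speckles, at 0.95 ± 0.18. Of 16 hnRNP-type proteins under other symbols 9 were lower and 2 higher (median -0.21), including SYNCRIP at -0.92 ± 0.13 and TARDBP at -0.77 ± 0.07. MATR3 read -2.97 ± 0.23 from a single probe set, as its others list a second symbol.

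For the core spliceosome, these counts at 24 h stand beside 37.1% of genes at or above level 4 called lower and 25.9% called higher. Of 20 proteins of U1 and U2 snRNPs and the 3′ splice site 12 were lower and 0 higher (median -0.48), led by SF3B5 at -1.30 ± 0.08 and SNRPA at -1.05 ± 0.10. Of 15 Sm and LSm proteins 8 were lower and 0 higher (median -0.19), led by LSM7 at -0.90 ± 0.09 and SNRPD3 at -0.86 ± 0.08. Of 24 tri-snRNP and catalytic proteins 11 were lower and 4 higher (median -0.22), with PRPF19 at -1.35 ± 0.11 and PRPF4 at -0.96 ± 0.16. Among 6 nonsense-mediated decay factors SMG5 was higher, 0.76 ± 0.13, and SMG8 lower, -0.50 ± 0.18. Of 6 genes for nuclear import and arginine methylation, PRMT1 and PRMT5, which methylate hnRNP and Sm proteins, fell by 2.48 ± 0.11 and 2.20 ± 0.12, and the others were not called.

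**Figure D5:**
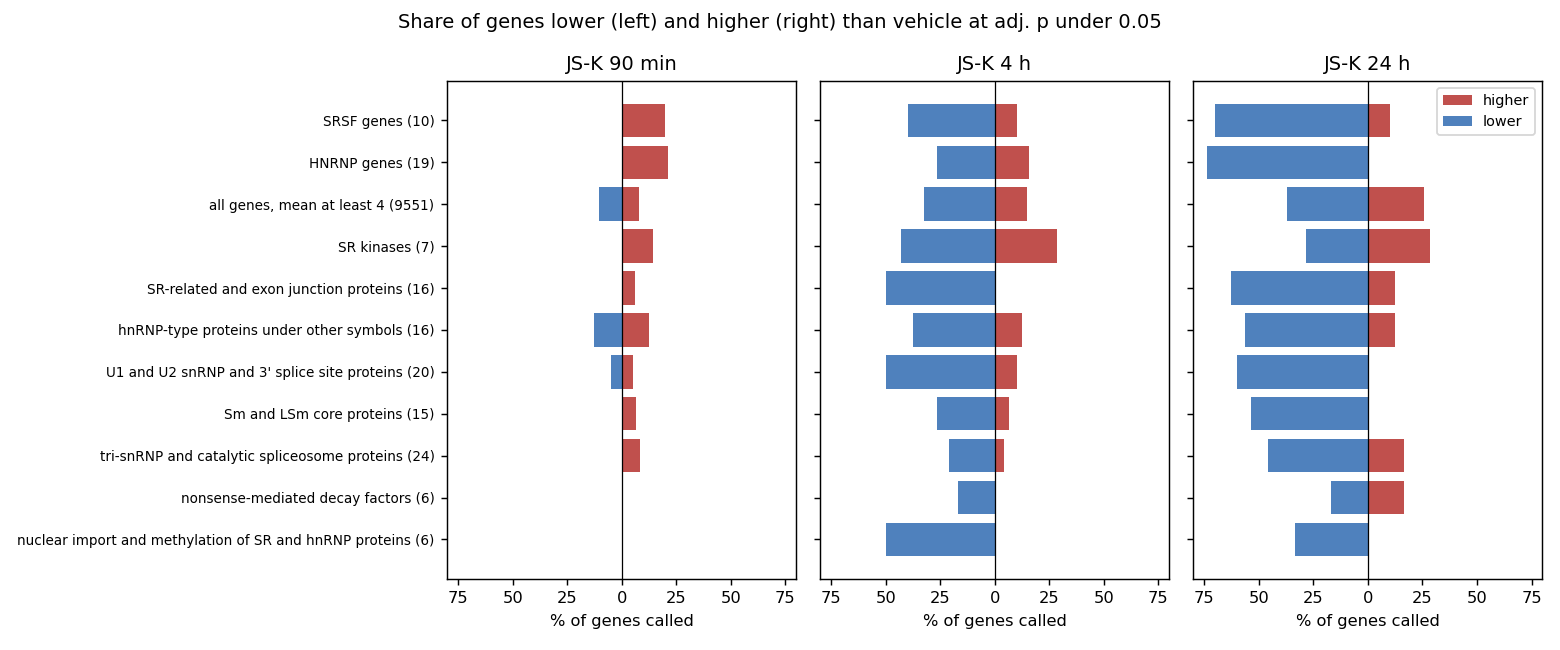
Percentage of genes called lower (blue, left) and higher (red, right) than vehicle at each time for the SRSF and HNRNP genes, all genes with a mean log2 level of at least 4, and 8 lists of other splicing genes, with the number measured in brackets. At 24 h the blue bars of both families exceed the 37.1% of all genes above that level, and SR kinases hold equal numbers on both sides.

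At 90 min, beside 8.05% of genes at or above level 4 called higher and 10.5% lower, 1 of 7 SR kinases, 1 of 16 SR-related genes (TRA2B, 0.28 ± 0.04) and 2 of 24 tri-snRNP genes were higher and 0 were lower in each. Of 15 Sm and LSm genes 1 was higher and 0 were lower, of 16 hnRNP-type genes 2 were higher and 2 lower, of 20 U1 and U2 genes 1 was higher and 1 lower, and none was called in the decay and import lists. At 4 h, beside 14.7% higher and 32.4% lower, 8 of 16 SR-related genes, 10 of 20 U1 and U2 genes, 6 of 16 hnRNP-type genes, 5 of 24 tri-snRNP genes, 4 of 15 Sm and LSm genes, 3 of 7 SR kinases, 3 of 6 import and methylation genes and 1 of 6 decay factors were lower. Those higher at 4 h numbered 2 each among SR kinases, hnRNP-type and U1 and U2 genes, 1 each among Sm and LSm and tri-snRNP genes, and 0 in the others.

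Other quantities differed between the groups over the same times. The mean log2 level of the 11 myeloid markers ran from 6.93 to 7.02 on vehicle arrays and from 7.93 to 7.96 at 24 h, with 6 markers called higher and 1 lower. That of the 9 genes listed as markers of other cell types ran from 3.56 to 3.59 and from 3.74 to 3.80. It includes PECAM1, with means of 9.22 on vehicle arrays and 10.67 at 24 h. The poly-A RNA control probe sets averaged 3.04 on vehicle arrays, 3.08 at 90 min, 7.02 at 4 h and 8.47 at 24 h, the hybridization controls 9.96 and 11.7 on vehicle and 24 h arrays, and those for 28S ribosomal RNA 9.04 and 11.2. The difference between 3′ and 5′ ACTB control probe sets was 0.80 on vehicle arrays and 0.96 at 24 h. Array medians lay between 2.84 and 2.99 save for JS-K 4 h replicate 2 at 3.10, and without that array 8 members were called higher at 90 min, 3 higher and 8 lower at 4 h, and 2 higher and 21 lower at 24 h. Since control levels differed with the group, array preparation and JS-K exposure at 4 h and 24 h cannot be told apart. The part of these quantities in the differences of the splicing genes was not tested.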

How the data were processed

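Total RNA of 12 U937 samples was labelled with biotin from 200 ng with a whole-transcript kit, per the labels' protocols. The probe set names are those of an array that reads 3′ ends. The authors deposited 1 log2 value per probe set and array, made with GCRMA in Affymetrix Expression Console per the submitters' processing notes, with versions not given in the sources used here. GCRMA corrects background by probe sequence and normalizes quantiles between arrays, which can narrow a difference shared by most genes. These values were used without further normalization.

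Of 54675 probe sets, 41097 listed 1 symbol, 1801 several and 11777 none, and 41043 matched RefSeq genes of GRCh38.p14. The probe set with the highest mean stood for each of 19775 genes. No filter on level was set, and a mean under 4 (10224 genes, 51.7%) was taken as low signal. The members and the gene lists were chosen with earlier results of these data known.

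All 12 arrays entered 1 fit with limma 3.58.1 in R 4.3.3 (lmFit and eBayes with a trend, 8 residual and 3.97 prior degrees of freedom), tested on simulated data. Tests were two-sided, with Benjamini-Hochberg adjustment over all genes of a comparison. All probe sets were also fitted in the same way. Errors are SE for differences and SD for levels, and the number of arrays limits the precision. Replicate numbers were checked for pairing: deviations of same-numbered vehicle and 90 min arrays correlated at 0.13 to 0.23 in all 3 pairs. In no other pair of groups did all 3 exceed 0.1. Between 90 min and 4 h they were 0.05, 0.37 and 0.30 for replicates 1, 2 and 3. Different-numbered arrays of these groups ran from -0.34 to 0.21. Same-numbered correlations were at most 0.37 and the labels state no pairing, so whether the numbers pair the samples is uncertain. The main fit has no pairing, and the replicate block was run as an alternative.

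Values on every array are given for up to 6 SRSF and 10 HNRNP genes with the largest called difference from vehicle without overlap, and for genes whose probe sets disagree. From each list up to 4 called genes with the largest change were taken. Alternatives were a constant prior spread, leaving out the dimmest genes or all genes under 4, averaging probe sets, quantile normalization, subtracting array medians, the replicate block, weights per array, a fit of only the 6 arrays compared, limma's treat at a fold of 1.2 and leaving out each array in turn. The fits of genes or probe sets with a mean of at least 4, those of 90 min and 24 h without JS-K 4 h replicate 2 and the replicate block with 6 arrays were chosen after seeing the data. Plots were made in Python 3.11.15 with matplotlib 3.10.9.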

Additional observations from a re-analysis of the deposited data

Results flagged for a closer look

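Control probe sets outside the comparisons of genes lay above their vehicle level with no overlap of arrays. The 24 poly-A RNA control probe sets had a mean log2 level of 3.04 on the vehicle arrays, 7.02 on the 4 h arrays and 8.47 on the 24 h arrays. The 18 hybridization control probe sets had means of 9.96 on the vehicle arrays and 11.7 at 24 h. The 2 probe sets for 28S ribosomal RNA had means of 9.04 on the vehicle arrays and 11.2 at 24 h. The labels do not say how these controls were added or whether arrays of different times were prepared together. Array preparation and JS-K exposure at 4 h and 24 h therefore cannot be told apart. The part of the controls in the lower levels of the SRSF and HNRNP genes at 24 h was not tested.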

How the results depend on the processing

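The members lower than vehicle at 24 h numbered 16 to 24 over the alternatives run, beside 21, and the median difference of the members kept its sign in every comparison and alternative. Averaging all probe sets of a gene gave 2 members higher and 1 lower at 90 min, 2 higher at 4 h, 2 higher at 24 h and 0 higher from 4 h to 24 h. Averaging probe sets with a mean of at least 4 gave 3 higher and 1 lower at 90 min, 1 higher and 14 lower at 4 h and 0 higher from 4 h to 24 h. Array weights, whose estimation did not converge fully, gave 18 higher and 2 lower at 90 min, 10 higher and 14 lower at 4 h, 4 higher at 24 h, 2 higher and 20 lower from 90 min to 4 h and 2 higher from 4 h to 24 h. A test against a fold of 1.2 gave 0 higher at 90 min, 0 higher and 1 lower at 4 h, 0 higher at 24 h, 1 lower from 90 min to 4 h and 0 higher and 7 lower from 4 h to 24 h. Subtracting array medians gave 2 higher at 4 h, 0 higher at 24 h and 0 higher from 4 h to 24 h, and quantile normalization 1 higher from 90 min to 4 h and 0 higher from 4 h to 24 h. The 6 arrays alone gave 1 higher at 4 h, 2 higher at 24 h, 7 lower from 90 min to 4 h and 0 higher from 4 h to 24 h. At 24 h, 0 were higher with a constant prior spread, without the dimmest genes and among genes with a mean of at least 4, and 2 without JS-K 4 h replicate 2, which also gave 8 higher at 90 min.

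With the arrays of a comparison left out in turn, the counts ranged from 5 to 6 higher at 90 min, from 1 to 5 higher and 7 to 10 lower at 4 h, with 0 higher in each at 24 h, from 9 to 13 lower between 90 min and 4 h, and from 0 to 1 higher and 13 to 20 lower between 4 h and 24 h. The replicate block left the 6 calls at 90 min, gave 4 higher and 10 lower at 4 h and 1 higher and 22 lower at 24 h, and moved no count by over 1.5 times.

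Among the genes with values given on every array, directions reversed in 3. SRSF1 at 90 min was -0.37 (adjusted p = 0.0108) with all probe sets averaged and -0.27 (adjusted p = 0.0432) with those of at least 4. SRSF10 at 4 h was -0.23 with either average, and SRSF6 at 4 h was 0.16 (adjusted p = 0.0355) with array weights. Outside that set, HNRNPA2B1 was 0.03 and not called at 4 h in the main fit, and was called with either average. Of its 4 probe sets fitted each on its own, 2 were lower and 0 higher at 4 h. The cause was not tested, other than that an average includes probe sets that differ. Signal near background limited SRSF12 and HNRNPLL.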
